A study of Homo sapiens with 34 samples.

Results

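The comparison set 5 cell lines of activated B-cell-like (ABC) diffuse large B-cell lymphoma (DLBCL) against 6 lines of the germinal centre B-cell-like (GCB) type, which together are 11 of the 34 lymphoma cell lines of the series. The ABC lines were HBL-1, MD903, OCI-Ly10, OCI-Ly3 and SU-DHL-8, and the GCB lines were HT, Pfeiffer, SU-DHL-10, SU-DHL-4, SU-DHL-5 and Toledo. Lines were chosen by the measured value of ZNF593, which had to lie above 4.56 in the deposited table, a cut that separates 2 kinds of library. ZNF593 lay between 10.02 and 11.15 in the kept ABC lines and between 9.77 and 10.57 in the kept GCB lines. It stood at 4.55, the value of a gene with 0 reads, in the 9 DLBCL lines left out, which were the ABC line NU-DUL-1 and 8 GCB lines.

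The series measured RNA of established lymphoma lines for a study of CXCR4 radioligands in mantle cell lymphoma. Each line was 1 library, so the lines of a type served as its replicates. The labels give the line and its pathology, with no treatment or genotype, and do not say how a line was assigned to the ABC or GCB type. All 11 lines were marked as re-analysed from earlier data.

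ABC and GCB DLBCL are classes of one histological diagnosis that differ in the stage of B-cell maturation they resemble. GCB tumours keep genes of the germinal centre, where B cells divide and mutate their antibody genes under the repressor BCL6. ABC tumours resemble B cells leaving that stage toward plasma cells, with IRF4 and chronic NF-kB activity as their best known features. A short set of classifier genes is widely used to tell the types apart.

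Values are variance-stabilised read counts on a log2 scale, on which 4.55 stands for 0 reads and low counts are compressed. Whole reads recovered from the values summed to 81.2 to 165 M (M, 1e6 reads) per ABC line and 70.8 to 108 M per GCB line. Between 22 and 28.9% of the genes had no read in an ABC line, and between 19.9 and 29.5% in a GCB line. The 8 summed B-cell markers lay between 1915 and 6598 CPM (reads of the markers per 1e6 reads) in ABC lines and between 2923 and 4338 in GCB lines. EBF1 was at 5.99 in Pfeiffer, while the other 10 lines lay at 9.51 or above.

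Across 18432 genes tested, 58 passed an adjusted p of 0.05 (0.315%) in limma, of which 25 were higher (0.136%) and 33 lower (0.179%) in ABC lines. The fit held 25 lines, adding the 11 mantle cell and 3 Burkitt lymphoma lines with comparable libraries to estimate the spread. Fitted without them, the 11 lines gave 0 calls of 16182 genes in limma, with 1841 genes at an unadjusted p below 0.05 and a smallest adjusted p of 0.0536. Values of the ABC and GCB lines did not overlap for 217 genes (1.18%), of which 118 were higher (0.64%) and 99 lower (0.537%) in ABC lines. Among the 58 called genes, 28 had ranges that did not overlap, 10 of them higher and 18 lower in ABC lines. RefSeq located 49 of the 58 genes on GRCh38.p14. In bulk RNA of a line, fewer expressing cells and less RNA per cell cannot be told apart. All differences below are ABC minus GCB in log2 units with the standard error of the fit. That error pools the spread of all 4 pathologies, so it can understate the spread among the ABC or GCB lines for single genes. Values of the ABC lines are in the order HBL-1, MD903, OCI-Ly10, OCI-Ly3 and SU-DHL-8.

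The classifier genes were examined first. Of 8 ABC classifier genes, 3 were called higher in ABC lines, against 0.136% of all genes tested. All 8 differences were positive, with a median of 3.34 against 0.02 over all genes tested. Of 7 GCB classifier genes, 5 were called lower in ABC lines, against 0.179% of all genes tested. All 7 differences were negative, with a median of -3.31. Since the lines may have been typed by such genes, these counts are no independent evidence of the types.

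IRF4, a transcription factor of activated B cells and plasma cells on chromosome 6, had 14.41, 13.02, 14.95, 14.59 and 13.28 in the ABC lines. In GCB lines it spanned 4.74 to 13.93 with a median of 5.15. All 5 ABC lines were high, whereas the GCB lines split into 4 with 1 to 9 reads and the pair Pfeiffer and Toledo, which had 16229 and 37214 reads. The difference of 6.26 ± 1.38 (adjusted p = 0.0474) was the highest of all called genes, but Toledo exceeded 2 ABC lines. CCDC50, which encodes a ubiquitin-binding signalling protein, stood at 14.05, 11.71, 13.69, 12.95 and 12.83 in ABC lines and 4.55 to 11.80 in GCB lines, a difference of 5.08 ± 0.95 (adjusted p = 0.0217). Toledo with 11.80 again lay inside the ABC range, just above MD903. LIMD1, a LIM domain scaffold protein, behaved alike, at 10.93 to 12.18 in ABC lines and 6.03 to 11.15 in GCB lines, where Toledo was again the highest (difference 3.26 ± 0.66, adjusted p = 0.034).

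The other 5 ABC classifier genes did not pass the threshold. TNFRSF13B, the receptor TACI for the B-cell survival factors BAFF and APRIL, had 14.31, 11.30, 13.47, 13.96 and 4.55 in ABC lines, and 4.55 to 11.66 in GCB lines. A single line on each side stood apart, since SU-DHL-8 had 0 reads and Toledo, the highest GCB line, had 11.66. CREB3L2, a transcription factor of the secretory pathway, was likewise at 4.82 in SU-DHL-8 and at 11.72 to 13.16 in the other ABC lines. CYB5R2 was at 4.76 in MD903 and 6.62 in SU-DHL-8, against 12.99 to 13.36 in the other 3 ABC lines. Differences were 5.35 ± 1.43 for TNFRSF13B, 3.41 ± 1.30 for CREB3L2, 3.05 ± 0.70 for RAB29, 2.57 ± 1.51 for CYB5R2 and 1.42 ± 0.75 for the kinase gene PIM2, with adjusted p between 0.06 and 0.59.

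On the GCB side, MME encodes the neprilysin CD10, a surface marker of germinal centre B cells. It was at 4.82, 8.92, 5.56, 5.52 and 11.44 in ABC lines, and at 9.98 to 13.26 with a median of 12.73 in GCB lines (difference -5.15 ± 1.15, adjusted p = 0.0484). SU-DHL-8 lay inside the GCB range, above Pfeiffer. S1PR2, the sphingosine phosphate receptor that keeps B cells within the germinal centre, had 8.23, 5.50, 6.84, 7.58 and 5.12 in ABC lines and 6.95 to 13.04 in GCB lines (difference -4.86 ± 0.88, adjusted p = 0.0217). Toledo was the low GCB line, and the next had 11.36. MAML3, a coactivator of Notch, was the only classifier gene without overlap, at 5.78, 4.55, 6.05, 4.55 and 4.88 in ABC lines and 7.10 to 9.32 in GCB lines. Its difference was -2.89 ± 0.56 (adjusted p = 0.0317), with at most 53 reads in any ABC line and at least 224 in every GCB line. ITPKB, a kinase of inositol trisphosphate, differed by -3.31 ± 0.70 and the transcription factor gene MYBL1 by -3.72 ± 0.74. ASB13 (-3.02 ± 1.10) and SERPINA9 (-2.85 ± 1.74) were not called, with adjusted p of 0.264 and 0.615.

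**Figure D1:**
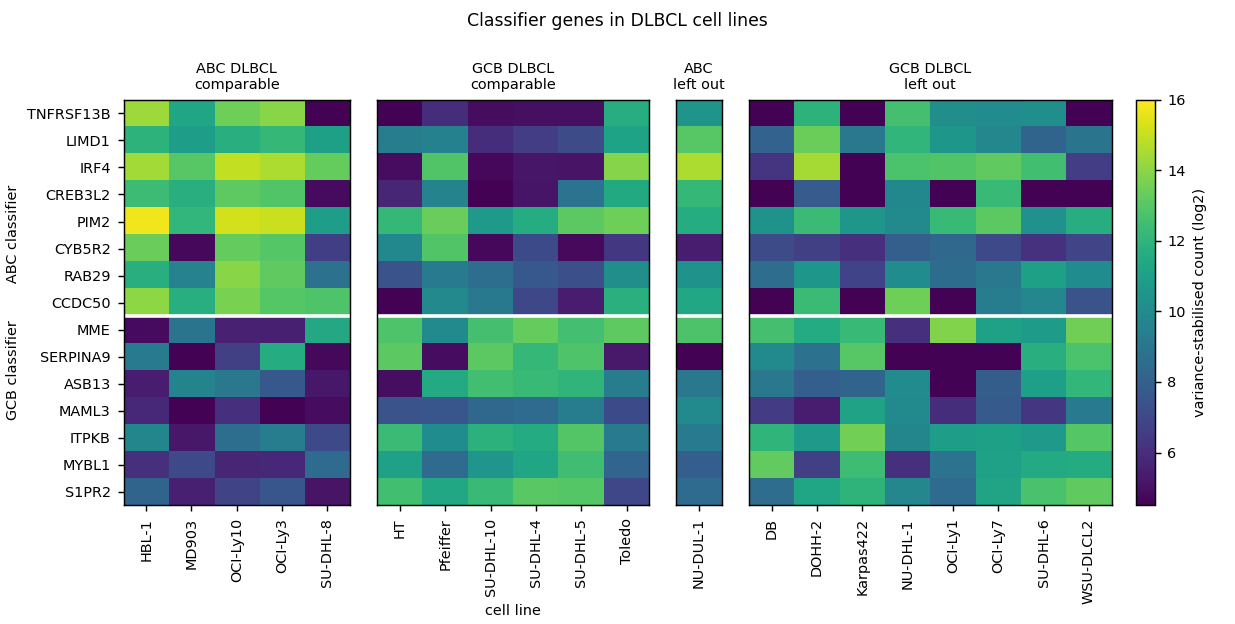
Variance-stabilised counts (log2, colour) of 8 ABC and 7 GCB classifier genes (rows) in 20 DLBCL lines (columns), with the comparable ABC and GCB lines at the left and the lines left out at the right. SU-DHL-8 is dark for TNFRSF13B (4.55) and CREB3L2 (4.82) among the ABC lines, and Toledo is bright for IRF4 (13.93) and TNFRSF13B (11.66) among the GCB lines.

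As a description of single lines, the mean of the ABC classifier genes minus the mean of the GCB classifier genes was computed. It was highest in OCI-Ly10 (6.73), HBL-1 (6.45) and OCI-Ly3 (6.04), followed by MD903 (4.14) and SU-DHL-8 (2.40) among ABC lines. Among GCB lines it was 2.78 in Toledo, 1.30 in Pfeiffer and -3.29 in HT, and it lay between -5.05 and -4.82 in SU-DHL-5, SU-DHL-10 and SU-DHL-4. Toledo therefore lay above SU-DHL-8 on this scale, although their labels give the opposite types. Toledo was not alone among lines labelled GCB. In those left out, of another kind of library, the scale gave 3.06 for NU-DHL-1, 2.28 for DOHH-2, 1.27 for OCI-Ly7 and 0.83 for OCI-Ly1. It was negative in DB, Karpas422, SU-DHL-6 and WSU-DLCL2, and 2.25 in the ABC line left out, NU-DUL-1. SU-DHL-8 was low in both sets, with means of 9.11 and 6.71, while Toledo was intermediate in both, with 11.25 and 8.47.

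**Figure D2:**
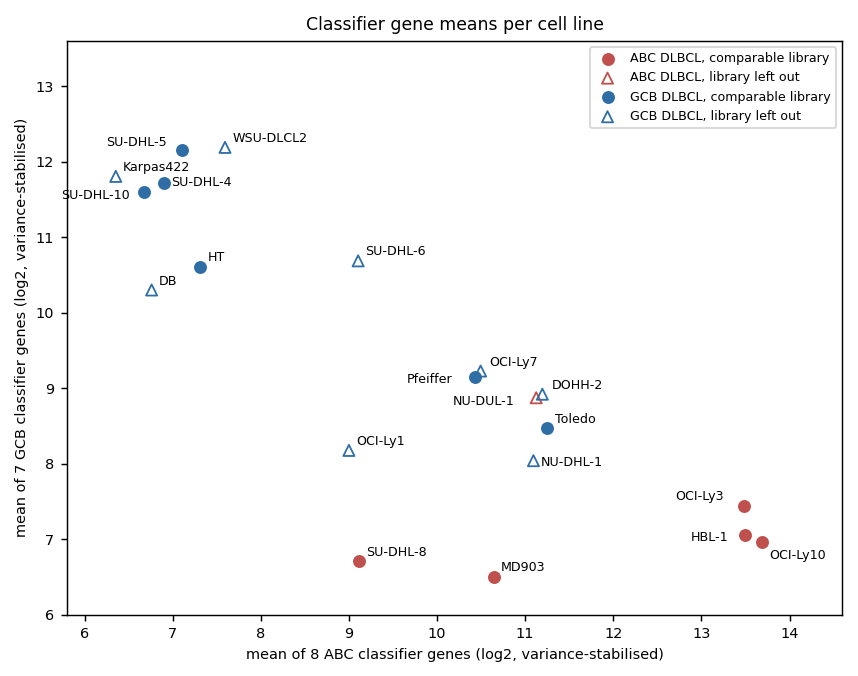
Mean of the 8 ABC classifier genes (x axis, log2) against the mean of the 7 GCB classifier genes (y axis, log2), 1 point per DLBCL line, filled circles for comparable libraries and open triangles for those left out. HBL-1, OCI-Ly3 and OCI-Ly10 sit at the lower right with ABC means of 13.48 to 13.69, and Toledo and Pfeiffer lie apart from the other 4 comparable GCB lines.

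Of the 33 lower genes, 18 had ranges without overlap. EEPD1 encodes a nuclease of the endonuclease/exonuclease/phosphatase family that acts at stalled replication forks, and lies on the forward strand at chr7:36153254-36301538 (RefSeq, GRCh38.p14). It had 5.63, 4.76, 5.83, 5.99 and 5.69 in ABC lines, and 7.53 to 12.54 with a median of 11.60 in GCB lines. In reads, ABC lines held 1 to 97 and GCB lines 337 to 14792, with Toledo the lowest GCB line by a wide margin. The difference of -5.58 ± 0.74 had the smallest adjusted p of the table (0.00153). EEPD1 was called in each of the 11 fits that left out 1 ABC or GCB line. Those fits share their lines with the fit that picked EEPD1, so they are no independent support. In limma on the 11 lines alone its adjusted p was 0.0796.

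DEPTOR encodes an inhibitor bound to the kinase mTOR and lies on chromosome 8. Its values were 5.24, 5.50, 5.88, 5.46 and 5.94 in ABC lines, and 6.55 to 12.58 with a median of 10.79 in GCB lines. Again no ABC line reached the lowest GCB line, which was Toledo. The difference was -4.74 ± 0.74 (adjusted p = 0.0118), called in 10 of the 11 fits with 1 of these lines left out. In limma on the 11 lines alone its adjusted p was 0.158. None of the other 14 genes of the PI3K and AKT list was called, against 0.315% of all genes tested. The PI3K subunit gene PIK3R1 also had ranges without overlap (adjusted p = 0.09). It lay at 9.51 to 10.37 in ABC lines and 10.59 to 11.54 in GCB lines.

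Several lower genes encode receptors, channels and G protein regulators. PTAFR, the receptor of platelet-activating factor, had 5.84, 5.69, 5.56, 5.46 and 5.60 in ABC lines, and 6.27 to 12.26 with a median of 11.57 in GCB lines (difference -5.16 ± 0.96, adjusted p = 0.0217). Its ABC values lay close together, and the GCB line nearest to them, Toledo, had 89 reads against 23 to 48 in ABC lines. KCNN3, a calcium-activated potassium channel, stood at 6.06, 6.99, 6.0, 7.20 and 5.83 in ABC lines and 8.94 to 13.48 in GCB lines (difference -5.06 ± 0.90, adjusted p = 0.0217). Pfeiffer and Toledo were the low GCB lines, and both lay above OCI-Ly3, the highest ABC line. RGS9, which speeds the switching off of G proteins and is best known from the retina, had 5.37 to 6.09 in ABC lines and 7.0 to 11.78 in GCB lines (difference -3.88 ± 0.77, adjusted p = 0.0319).

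GNA13 encodes the G protein subunit through which S1PR2 signals. It had 12.10, 12.04, 11.99, 11.54 and 11.94 in ABC lines, and 12.83 to 14.09 in GCB lines. The groups did not overlap, although the difference of -1.38 ± 0.26 (adjusted p = 0.0217) was among the smaller ones. GNA13 was the only 1 of 19 germinal centre genes that was called, against 0.315% of all genes tested. The list had a median difference of -1.36 with 14 negative values. BCL6 itself was at 12.88, 13.25, 12.57, 10.68 and 7.43 in ABC lines and 9.93 to 14.55 in GCB lines (difference -1.99 ± 1.04, adjusted p = 0.515), with SU-DHL-8 and Toledo the lowest lines of their types. The surrogate light chain relative VPREB3 (-4.90 ± 1.16, adjusted p = 0.0613) and the LIM factor LMO2 (-2.97 ± 0.98, adjusted p = 0.217) had larger differences than GNA13 and wider spreads.

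Transcription factor genes followed. SPI1 encodes PU.1, an ETS factor of myeloid cells and B cells, and had 9.61, 10.69, 10.21, 10.37 and 10.84 in ABC lines and 11.15 to 12.74 in GCB lines. Every GCB line lay above every ABC line, the closest being Pfeiffer with 11.15 (difference -1.87 ± 0.42, adjusted p = 0.0477). Of the other 15 B-cell transcription factor genes tested, none was called, against 0.315% of all genes tested. PAX5 differed by 0.51 ± 0.42 and EBF1 by 0.35 ± 0.72. ZNF318, a zinc finger protein that the mouse needs to express IgD, was at 10.04 to 10.96 in ABC lines and 11.01 to 13.20 in GCB lines. ZNF652 was at 7.53 to 9.63 in ABC lines and 9.98 to 11.95 in GCB lines. Adjusted p was 0.0435 for ZNF318 and 0.0317 for ZNF652. The homeobox gene MEIS1 (difference -2.76 ± 0.60) and SMAD5, a transducer of bone morphogenetic protein signals (-1.39 ± 0.30), were called with overlapping ranges.

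The remaining lower genes by the naming rule were LCMT2, CPNE3, C3orf67, MAST2, DAAM1 and the non-coding RP11-760H22.2. LCMT2, which completes the modified base wybutosine in transfer RNA, had 4.75, 4.76, 4.86, 4.70 and 7.11 in ABC lines and 8.39 to 9.80 in GCB lines (difference -3.80 ± 0.65, adjusted p = 0.0217). The other 4 ABC lines held 1 or 2 reads, whereas SU-DHL-8 held 234 and the GCB lines 567 to 2069. CPNE3, a calcium-dependent membrane-binding copine, had 11.16, 4.91, 9.98, 9.66 and 7.20 in ABC lines, where the spread was wide, and 11.51 to 12.63 in GCB lines. Differences were -3.50 ± 0.77 for CPNE3, -3.67 ± 0.81 for C3orf67, -2.07 ± 0.44 for the microtubule-associated kinase MAST2, -1.80 ± 0.38 for the formin DAAM1 and -2.29 ± 0.44 for RP11-760H22.2. The types nearly met for C3orf67, at 7.47 in OCI-Ly10 and 7.50 in Pfeiffer, and for RP11-760H22.2, at 4.88 in SU-DHL-8 and 4.89 in Toledo.

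The other 11 lower genes called included GNG7, NLRC3, AC023590.1, RP11-481J2.2, ZNF302, ARHGEF37, SEPT9, RP11-44H4.1, WRB and SP9, beside those above. SP9 was near 0 reads, at most 4.89 in ABC lines and 5.16 to 6.26 in GCB lines. It entered the test only through GCB lines, where it was higher, and was tested in 8 of the 11 fits with 1 line left out. Its call is therefore weak support for a difference. Among the 11 lines, RP11-44H4.1, RP11-760H22.2 and MEIS1 also lay over 1 unit above the lowest value only in GCB lines. Those calls are weak support as well. GNG7, a G protein gamma subunit, had 4.77 to 7.15 in ABC lines and 4.84 to 13.14 in GCB lines, of which Pfeiffer was the low one (difference -4.90 ± 1.06, adjusted p = 0.0421). NLRC3, an inhibitor of innate immune signalling, was at 5.72, 5.50, 5.45, 5.35 and 9.27 in ABC lines, where SU-DHL-8 stood out, and at 9.09 to 12.29 in GCB lines (difference -4.34 ± 0.87, adjusted p = 0.0319).

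**Figure D3:**
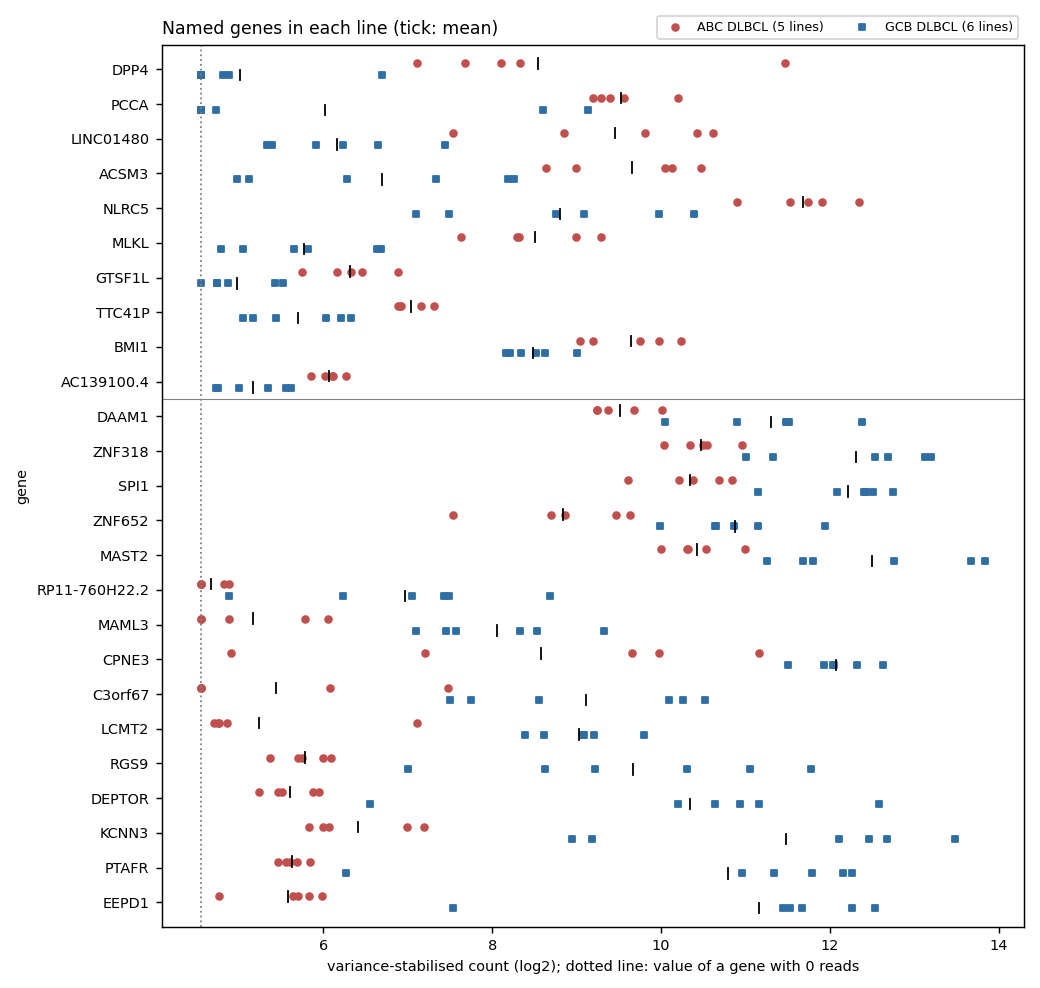
Variance-stabilised counts (x axis, log2) of the 25 genes named by rule in 5 ABC lines (circles) and 6 GCB lines (squares), with ticks at group means and a dotted line at the value of 0 reads (4.55). Ranges of the types do not overlap by construction, and the lone low GCB point of EEPD1 (7.53) and PTAFR (6.27) is Toledo.

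Of the 25 higher genes called, 10 had ranges without overlap. NLRC5 encodes the transactivator of MHC class I genes and lies on chromosome 16. It had 11.74, 11.53, 11.91, 10.90 and 12.34 in ABC lines, and 7.10 to 10.40 with a median of 8.92 in GCB lines (difference 2.89 ± 0.53, adjusted p = 0.0217). OCI-Ly3 was the lowest ABC line, and Pfeiffer and Toledo were the highest GCB lines. Of the other 12 MHC class I genes none was called, against 0.315% of all genes tested, so 0 calls is the usual outcome here. HLA-B differed by 1.03 ± 0.91, HLA-C by 0.90 ± 0.67 and B2M by 0.99 ± 0.70, and the median of the list was 0.30. MLKL, the protein that permeabilises membranes in necroptosis, had 8.29, 8.32, 9.29, 9.0 and 7.63 in ABC lines and 4.79 to 6.68 in GCB lines (difference 2.74 ± 0.50, adjusted p = 0.0217).

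DPP4 encodes the surface peptidase CD26 and had 8.10, 7.68, 11.47, 7.11 and 8.33 in ABC lines and 4.55 to 6.70 in GCB lines (difference 3.53 ± 0.70, adjusted p = 0.0319). OCI-Ly10 was far above the other ABC lines, and Pfeiffer with 133 reads was above the other GCB lines with 0 to 3. PCCA, a subunit of the mitochondrial propionyl-CoA carboxylase, was uniform in ABC lines at 9.29, 9.57, 9.40, 9.19 and 10.20 and split in GCB lines, which spanned 4.55 to 9.13. In GCB lines, 4 had 0 or 1 read of PCCA, while Pfeiffer had 1106 and Toledo 817 (difference 3.51 ± 0.76, adjusted p = 0.0421). ACSM3, a mitochondrial acyl-CoA synthetase, had 8.64 to 10.47 in ABC lines and 4.97 to 8.26 in GCB lines (difference 2.96 ± 0.65, adjusted p = 0.0438).

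BMI1, a subunit of the Polycomb repressive complex that marks histone H2A, had 9.98, 9.75, 10.24, 9.04 and 9.20 in ABC lines and 8.16 to 9.0 in GCB lines (difference 1.16 ± 0.24, adjusted p = 0.0396). OCI-Ly3 and the highest GCB line, SU-DHL-5 (9.0), nearly met. LINC01480 differed by 3.29 ± 0.67, GTSF1L by 1.34 ± 0.28, the pseudogene TTC41P by 1.33 ± 0.27 and AC139100.4 by 0.90 ± 0.20. The last 3 were weakly expressed, and AC139100.4 had 50 to 116 reads in ABC lines and 1 to 29 in GCB lines. Of the 15 higher genes with overlapping ranges, the tropomyosin TPM2 (5.06 ± 1.11) and NRROS (4.43 ± 0.81), a binder of latent TGF-beta, had the highest differences beside the classifier genes. The iron regulatory protease TMPRSS6 (4.17 ± 0.82) and the kinesin KIF21A (4.11 ± 0.79) followed. For TMPRSS6 the pooled error hides a wide spread, as ABC lines ran from 4.55 to 12.49 with a standard deviation of 3.11. The other 8 were RP11-382A20.3, CLECL1, SLC2A13, LINC01558, ABCG2, KCNA2, WNK4 and DNAJB13, with differences up to 4.05 ± 0.75 for RP11-382A20.3. Among the 11 lines, LINC01558, KCNA2, DNAJB13 and GTSF1L lay over 1 unit above the lowest value only in ABC lines. Their calls are therefore weak support for a difference, like that of SP9. For KIF21A the GCB lines held the same split as for IRF4, with 10.85 in Toledo and 8.36 in Pfeiffer against at most 5.51 in the other 4.

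The promoters of a pair of genes are shown because SPI1, itself lower in ABC lines, encodes a factor known to bind the core GAGGAA: those of EEPD1, the lower gene with the smallest adjusted p, and of IRF4, the highest difference. Each is the 250 bases before the RefSeq start on the forward strand of GRCh38.p14, EEPD1 at chr7:36153004-36153253 and IRF4 at chr6:391502-391751, with the core in capitals.
EEPD1: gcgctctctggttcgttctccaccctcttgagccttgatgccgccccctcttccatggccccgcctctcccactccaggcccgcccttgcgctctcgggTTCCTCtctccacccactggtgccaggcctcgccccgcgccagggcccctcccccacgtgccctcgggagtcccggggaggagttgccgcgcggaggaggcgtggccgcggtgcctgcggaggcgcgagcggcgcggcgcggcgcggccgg
IRF4: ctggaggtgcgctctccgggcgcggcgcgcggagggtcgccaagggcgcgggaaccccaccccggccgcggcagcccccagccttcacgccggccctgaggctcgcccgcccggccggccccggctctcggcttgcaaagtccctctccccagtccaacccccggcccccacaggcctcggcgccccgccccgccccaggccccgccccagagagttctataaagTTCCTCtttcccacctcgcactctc
Both hold 1 core, read on the opposite strand as TTCCTC, 151 bases before the EEPD1 start and 25 before that of IRF4. GAGGAA on either strand was found in 4 of 21 such windows of the named genes (19%), in 10 of 50 of all called genes and in 8277 of 35116 of all RefSeq promoters of that length (23.6%). Genes with several starts have several windows, and 14 of 25 named and 33 of 58 called genes had at least 1 window. TTCNNNGAA, shared by STAT factors and BCL6 and also searched on both strands, was in 3 of 50 windows of called genes and in 6.57% of all. A match is a run of letters only.

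Outside the classifier lists, 4 of 354 list members tested were called (1.13%), against 0.315% of all genes tested. The lists were chosen with earlier results of these data known, so the higher share is no evidence about them. At the share of all genes, 0 calls is also the usual outcome for a short list. The 22 genes associated with the ABC type had 0 calls in limma, although 21 of 22 differences were positive with a median of 2.23. The cyclin gene CCND2 had 15.75, 4.91, 13.67, 14.15 and 4.82 in ABC lines and 4.55 to 7.04 in GCB lines (difference 5.09 ± 1.75, adjusted p = 0.231). HBL-1, OCI-Ly10 and OCI-Ly3 were high, and MD903 and SU-DHL-8 lay among the GCB lines. BATF, an AP-1 factor, had 13.14, 9.17, 14.01, 14.38 and 6.86 in ABC lines and 4.88 to 12.98 in GCB lines, where Pfeiffer was the highest and SU-DHL-4 with 7.76 the next. MIR155HG, the host transcript of miR-155, had 11.35, 9.60, 11.53, 11.31 and 5.59 in ABC lines and 5.12 to 6.70 in GCB lines (adjusted p = 0.157). SU-DHL-8 was the only ABC line inside the GCB range of MIR155HG.

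NF-kB genes were of interest because of their known activity in the ABC type. Neither the 14 factors and inhibitors (median 0.18) nor the 19 tested targets (median 0.96) had a called member. With 0.315% of all genes tested called, lists this short would seldom hold a call, so this is no result about NF-kB. NFKBIZ and NFKBIE had the highest differences of the first list. NFKBIZ stood at 14.06, 11.87, 13.65, 12.43 and 8.62 in ABC lines and 5.75 to 11.49 in GCB lines (difference 3.49 ± 0.93, adjusted p = 0.106). NFKBIE stood at 13.82, 12.51, 13.09, 12.35 and 9.84 in ABC lines and 9.78 to 10.56 in GCB lines (difference 2.25 ± 0.63, adjusted p = 0.131). For both, 4 ABC lines lay above every GCB line and SU-DHL-8 did not. NFKBIB, with ranges that did not overlap, differed by 0.83 ± 0.32 (adjusted p = 0.305).

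Signalling and plasma cell lists held no further call, against 0.315% of all genes tested. The 20 B-cell receptor genes had a median of 0.14, the 11 tested Toll-like receptor genes -0.13, the 20 JAK-STAT genes 0.48, the 13 tested BCL2 family genes 0.13 and the 14 plasma cell genes -0.01. IRAK2, a kinase downstream of Toll-like receptors, nevertheless had ranges without overlap, at 5.91, 4.76, 6.01, 4.95 and 5.05 in ABC lines and 6.64 to 9.24 in GCB lines (adjusted p = 0.14). PRDM1, the plasma cell repressor BLIMP1, had 8.89, 6.27, 12.69, 12.10 and 8.25 in ABC lines and 4.79 to 9.86 in GCB lines (difference 3.26 ± 0.99, adjusted p = 0.169). The antibody joining chain gene JCHAIN had a difference of the opposite sign, at 11.29, 12.90, 5.82, 5.29 and 6.05 in ABC lines and 9.48 to 14.89 in GCB lines (difference -4.57 ± 1.45, adjusted p = 0.191). The 13 immunoglobulin constant genes had a median of 1.52 and 0 calls, with IGHM from 5.54 in SU-DHL-8 to 19.42 in HBL-1 among ABC lines and from 6.13 to 17.19 in GCB lines.

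Cell cycle and antigen presentation lists also held 0 calls in limma apart from NLRC5, against 0.315% of all genes tested. Of the 12 proliferation genes 11 had a negative difference, with a median of -0.24. Of the 18 genes of the G1 to S transition 10 were negative (median -0.16), and of the 12 MHC class II genes 8 were (median -0.44). CDKN2A, the p16 and p14ARF gene, was at 7.51, 4.55, 5.16, 4.55 and 12.99 in ABC lines and 10.98 to 12.44 in GCB lines (difference -4.83 ± 1.73, adjusted p = 0.258). Only SU-DHL-8 among ABC lines reached the GCB level, and MD903 and OCI-Ly3 had 0 reads. MYC was at 13.58 to 14.58 in ABC lines and 12.20 to 14.18 in GCB lines. The interferon response list (20 genes) had a median of 0.74, the antibody and cell therapy targets (15 genes) 0.71, and the 12 tested chemokine and positioning receptors 0.63, also with 0 calls. Mitochondrially encoded (0.21), histone (0.12) and ribosomal protein genes (0.17) lay near 0.

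CXCR4, the gene of the study, had 8.84, 11.93, 13.86, 10.18 and 14.59 in ABC lines, and 8.45 to 14.73 with a median of 12.63 in GCB lines. Both types spanned a wide range and overlapped almost fully (difference -0.39 ± 1.11, adjusted p = 0.954). The sign of that difference turned when HBL-1 (0.37), OCI-Ly3 (0.03) or Toledo (0.10) was left out.

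**Figure D4:**
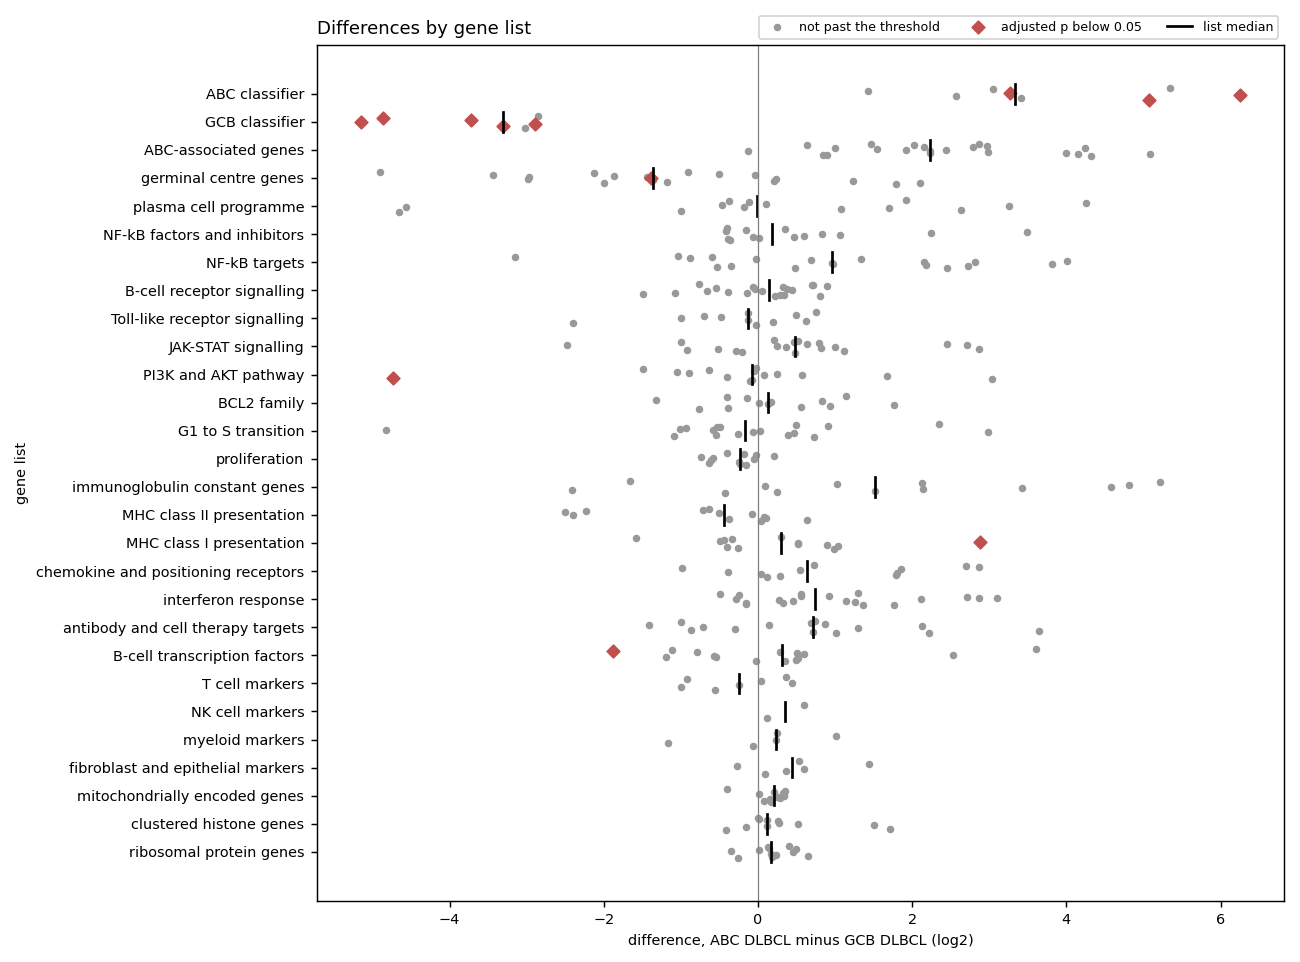
Differences of list members, ABC minus GCB lines (x axis, log2), by gene list (y axis), with diamonds for genes past the threshold, dots for the others and bars at list medians. The ABC classifier (median 3.34) and ABC-associated genes (2.23) lie to the right, the GCB classifier (-3.31) and germinal centre genes (-1.36) to the left, and most other medians are near 0.

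Markers of other cell types were also examined. None of the 7 tested T cell, 2 NK cell, 5 myeloid, or 6 fibroblast and epithelial markers was called, against 0.315% of all genes tested. At that share 0 calls is the usual outcome, so this is no result about other cell types. The lists held 8 T cell, 5 NK cell and 8 myeloid markers, and those not tested did not pass the filter on low values. Summed T cell markers lay between 2.32 and 75.7 CPM in ABC lines and between 1.37 and 706 in GCB lines. The sums of NK cell markers were 0.0121 to 23.1 in ABC lines and 0.0647 to 3.12 in GCB lines, and those of myeloid markers 0.308 to 9.48 in ABC lines and 0.254 to 68.4 in GCB lines, with S100A8 at 0 reads in all 11 lines. Fibroblast and epithelial markers summed to 0.285 to 75.3 in ABC lines and 0.0141 to 219 in GCB lines. Among GCB lines Pfeiffer held the highest T cell sum and the highest fibroblast and epithelial sum, through CD8A (14.74) and EPCAM (12.86) in the main, and HT the highest myeloid sum through CD33 (11.22). CD3E in Pfeiffer was at 5.36, and CD3D had 183 reads there. Their part in the differences was not tested.

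Some lines lay within the range of the other type for many called genes. Of the 58 called genes, Toledo lay within the ABC range for 21 and SU-DHL-8 within the GCB range for 20, while OCI-Ly10 did so for 3 and SU-DHL-10 and SU-DHL-4 for 2 each. HBL-1, MD903 and OCI-Ly3 did so for 11, 11 and 8 genes, and Pfeiffer, HT and SU-DHL-5 for 10, 7 and 5. Across 18432 genes, the correlation between lines was highest for SU-DHL-10 and SU-DHL-4 (Pearson r = 0.943), both GCB, and lowest for SU-DHL-8 and Pfeiffer (r = 0.825). Pairs did not always follow the types: SU-DHL-8 with Toledo had 0.907 and MD903 with Toledo 0.899, above 0.882 for SU-DHL-8 with MD903, its closest ABC line, and 0.861 for HBL-1 with MD903. These values describe pairs of libraries across genes, which are not independent.

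The count of calls depended on single lines. Without Toledo 234 genes were called, without SU-DHL-8 197, without Pfeiffer 128 and without MD903 94. It fell to 1 without SU-DHL-4, to 2 without SU-DHL-10, SU-DHL-5 or OCI-Ly10, to 9 without OCI-Ly3 and to 24 without HT, and it was 56 without HBL-1. The single gene called without SU-DHL-4 was EEPD1. Among the 11 lines alone, leaving out Toledo gave 52 calls and leaving out SU-DHL-8 39, against 0 with all lines. Restricting the fit of comparable lines to those marked as re-analysed left 4 calls, namely EEPD1, LCMT2, DEPTOR and GNA13, all lower in ABC lines. All 58 genes kept their direction in each of these fits that tested them. This was largely set in advance, since the genes were chosen for their differences in the same lines. For the 28 with ranges without overlap, leaving out a line cannot turn the sign.

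**Figure D5:**
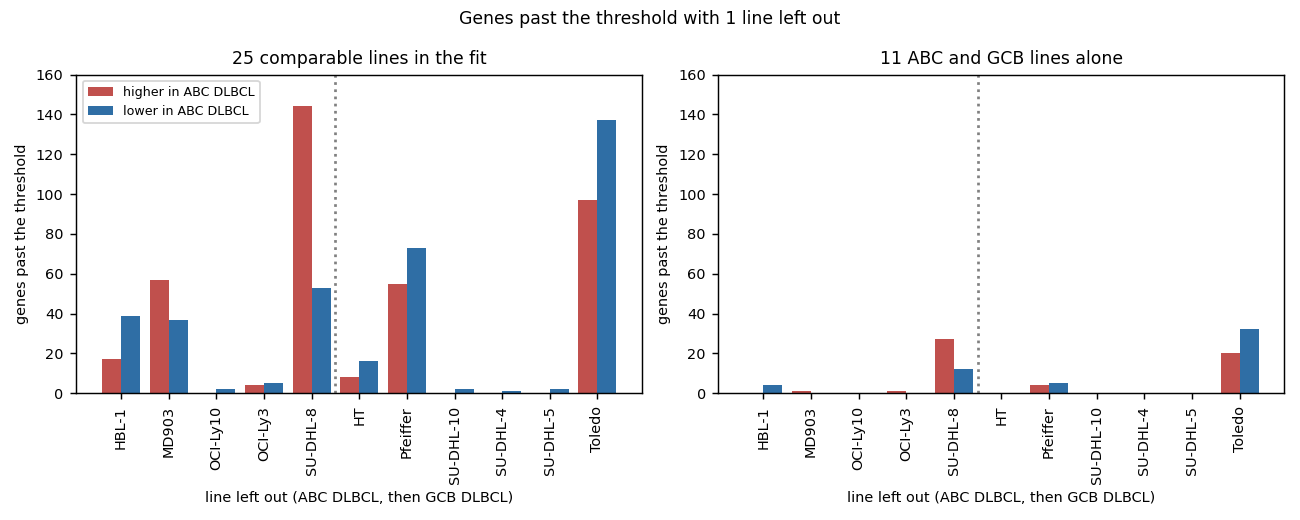
Number of genes past the threshold (y axis), higher (left bar) and lower (right bar) in ABC lines, with the line on the x axis left out, for the fit of 25 lines (left) and of the 11 lines alone (right). Bars reach 144 higher genes without SU-DHL-8 and 137 lower genes without Toledo, and nearly vanish without OCI-Ly10, SU-DHL-10, SU-DHL-4 or SU-DHL-5.

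The 9 DLBCL lines left out were placed on the ranges of the 25 named genes, as values of another kind of library. A value was on the side of a type when it reached or passed that type's range. The 8 GCB lines had 2.55 to 4.84 M reads, and NU-DUL-1 had 22.7 M. At these depths 1 read stood at 5.29 to 5.63 in the GCB lines and at 4.91 in NU-DUL-1. For RP11-760H22.2, whose comparable GCB range began at 4.89, 1 read was therefore enough for the GCB side. Sides of weakly expressed genes thus partly reflect depth. For the 15 lower genes, 91 of 120 values of these GCB lines (75.8%) reached the range of the comparable GCB lines and 19 (15.8%) that of the ABC lines. For the 10 higher genes, 46 of 80 values (57.5%) lay on the GCB side and 28 on the ABC side. The lines differed: of the 25 genes, 21 were on the GCB side in Karpas422 and in WSU-DLCL2. In DOHH-2 and NU-DHL-1 it was 12 each, with 11 and 12 genes on the ABC side, and in the other GCB lines 16 to 20. DAAM1 and ZNF652 among the lower genes and ACSM3 among the higher genes were on the GCB side in all 8 lines, whereas C3orf67 was on the ABC side in 6 of 8 and BMI1 in 6 of 8. NU-DUL-1 was on the ABC side for 6 of 10 higher genes, including NLRC5 and PCCA, but for 4 of 15 lower genes. Its KCNN3 was 11.05, and its EEPD1 (6.42) lay between the types. The kind of library and the lines cannot be told apart in these values.

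Mantle cell and Burkitt lymphoma lines, used in the fit, gave a further view of the same genes. All 11 mantle cell lines lay on the ABC side for LINC01480, BMI1 and MAST2, and all 11 on the GCB side for AC139100.4. For EEPD1, 2 mantle cell lines were on the ABC side, 5 between the types and 4 on the GCB side. Burkitt lines, which derive from germinal centre B cells, were on the GCB side in 3 of 3 lines for 10 of the 25 genes. PTAFR, KCNN3, DEPTOR and BMI1 were among them. This side was not particular to Burkitt lines, as mantle cell lines were on it in 8 of 11 for PTAFR (0 on the ABC side). For KCNN3 it was 7 (2 on the ABC side) and for DEPTOR 5 (3 on the ABC side), unlike BMI1. For another 10 genes, EEPD1 and SPI1 among them, 2 of 3 Burkitt lines were on the GCB side. For the other 5, NLRC5, CPNE3, MAML3, ZNF652 and GTSF1L, it was 1 of 3, and NLRC5 and CPNE3 had 2 of 3 Burkitt lines on the ABC side.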

How the data were processed

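RNA-seq values of 34 lymphoma lines were used, of which 11 ABC and GCB lines were compared. The authors deposited variance-stabilised counts per gene on a log2 scale, 31975 genes in 34 columns. The submitters' processing notes name STAR 2.5.3a, R 3.6.1, DESeq2 1.26.0 and GRCh38, with no role for each. The read counter, annotation release, filters and use of strand are not given in the sources used here, so reads of near-identical genes (HLA, immunoglobulin) or of overlapping genes may be split or shared. Inverting the transform gave whole reads, within 0.05, for 100% of values.

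Genes entered the test, 18432 in all, if 3 or more fitted lines were over 1 unit above the lowest value. One mean per pathology was fitted to 25 lines (5 ABC, 6 GCB, 11 mantle cell, 3 Burkitt) using limma 3.58.1 (R 4.3.3) and its intensity-dependent prior. P-values were adjusted by Benjamini-Hochberg over all genes, with a threshold of 0.05, and reflect only the spread among lines of 1 library each. The code was tested on simulated reads. Named by rule were up to 15 genes per direction that were called and had ranges without overlap, and other called genes are named because they passed. Members, lists and tests were chosen with earlier results of these data known. Promoters are from RefSeq. Alternatives were the lines fitted, scaling, voom on recovered reads, the filter, the prior and leaving out each ABC and GCB line. Single values of a few genes are not reported here.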

Additional observations from a re-analysis of the deposited data

Results flagged for a closer look

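Of 82 sets of values checked, covering 40 genes and the read totals, 11 held a line far from the others of its type. For normally spread values chance gives about 1 in 20 such sets, but most genes here were chosen for their differences, and some are split or near 0 reads. In ABC lines these were DPP4 in OCI-Ly10 (11.47, next 8.33), LCMT2 in SU-DHL-8 (7.11, next 4.86), EEPD1 in MD903 (4.76, next 5.63), CREB3L2 in SU-DHL-8 (4.82, next 11.72) and the depth of OCI-Ly3 (165 M, with M for 1e6 reads, next 103 M). In GCB lines Toledo stood apart for PTAFR (6.27, next 10.95), EEPD1 (7.53, next 11.45), TNFRSF13B (11.66, next 5.99) and S1PR2 (6.95, next 11.36). Pfeiffer stood apart for DPP4 (6.70, next 4.89) and MME (9.98, next 12.56). Toledo thus accounted for 4 of the 6 in GCB lines.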

How the results depend on the processing

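The 58 calls, 25 higher and 33 lower in ABC lines, depended on the lines fitted. The 11 ABC and GCB lines alone gave 0, with 0 higher and 0 lower, in limma (1841 genes at an unadjusted p below 0.05). Re-analysed lines only gave 4 (0 higher, 4 lower). All 34 lines with the kind of library as a covariate gave 26 (10 higher, 16 lower), of which 15 were among the 58, and without that covariate 161 (87 higher, 74 lower), of which 35 were. Voom on recovered reads gave 18 (11 higher, 7 lower), 13 of them among the 58. Quantile normalization gave 84, with 41 higher, median centring 68, no filter 52 and no intensity-dependent prior 48. Leaving out 1 ABC or GCB line from the fit of 25 gave 1 to 234 calls (0 to 144 higher, 1 to 137 lower). Leaving out 1 of the 11 lines alone, an alternative chosen after seeing the data, gave 0 to 52 calls (0 to 27 higher, 0 to 32 lower), with 0 in 5 of 11 fits, 39 without SU-DHL-8 (27 higher, 12 lower) and 9 without Pfeiffer (4 higher, 5 lower). The cause was not tested. In every alternative that tested them the 58 genes kept their direction, which is no independent support, since they were chosen from the same values. The CXCR4 difference of -0.39 turned to 0.45 with all lines and the covariate, 0.76 without it, 0.37 without HBL-1, 0.03 without OCI-Ly3 and 0.10 without Toledo, with a range of -1.16 to 0.37 over the lines left out. No paired analysis was possible because replicate numbers were given in accession order and pair no lines. Depth limits genes near 0 reads, where the transform compresses differences.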
